A study of Mus musculus with 6 samples.

Results

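The 9 genes described here encode the transcriptional coactivators YAP (Yap1) and TAZ (Wwtr1), their DNA-binding partner TEAD1 (Tead1), and 6 of their known target genes (Ccn1, Ccn2, Ankrd1, Amotl2, Ajuba and Lats2). They were found by gene symbol in a count table of 55487 mouse genes. Each of the 9 symbols matched 1 gene, and all 9 passed the filter on low counts. Sequencing was of poly(A)-selected RNA of 4T1 cells, a mouse mammary carcinoma line that grows as an adherent epithelial culture. The record's library source reads single cell, whereas its extraction protocol and a table with 1 column per library are those of bulk RNA, which is how the values were handled. In the CEP group, 3 libraries came from cells kept for 12 h with 10 µM cepharanthine, a bisbenzylisoquinoline alkaloid. In the DMSO group, 3 libraries came from cells given the same volume of dimethyl sulfoxide, the solvent. Both groups are the same line with no genetic change named in the labels, and 1 dose and 1 time were sampled. The comparison asked how the drug alters transcript levels against its solvent.

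YAP and TAZ are shuttling proteins that cannot bind DNA themselves. In the nucleus they join TEAD transcription factors and switch on genes of growth, adhesion and matrix signalling. The Hippo kinases, ending with LATS1 and LATS2, phosphorylate YAP and TAZ and keep them in the cytoplasm, while spreading, stiff substrates and actin tension favour the nucleus. Control is therefore exerted largely on the proteins, and transcript levels do not measure where YAP and TAZ are in the cell. Several targets, among them Lats2, Amotl2 and Ajuba, encode regulators of the same pathway.

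TEAD proteins recognise the sequence GGAATG, known as the MCAT core. RefSeq promoter windows of 300 bases (250 before and 50 after the annotated start, GRCm38.p6) were matched for 7 of the 9 genes, in 9 windows. Tead1 and Ccn2 were not matched. GGAATG, searched on both strands, was present in the windows of all 7 matched genes, in 8 of the 9 windows, whereas it occurred in 14.7% of 32817 mouse windows of that length. The 9 distinct matches are printed below on the strand that reads GGAATG, with the core in capitals and 12 bases on each side. The core is common to all because it was the string searched for, and the flanking bases are shown as a description.
Yap1, 141 bases upstream, chr9:8004720-8004749, minus strand: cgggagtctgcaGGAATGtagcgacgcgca
Wwtr1, 136 bases upstream, chr3:57576029-57576058, minus strand: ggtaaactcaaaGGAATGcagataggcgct
Ccn1, 103 bases upstream, chr3:145650071-145650100, plus strand: tcaaacatctcaGGAATGttggttggcgcg
Ankrd1, 210 bases upstream, chr19:36120037-36120066, minus strand: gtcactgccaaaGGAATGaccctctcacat
Ankrd1, 123 bases upstream, chr19:36119950-36119979, minus strand: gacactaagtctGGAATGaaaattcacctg
Amotl2, 65 bases upstream, chr9:102717727-102717756, minus strand: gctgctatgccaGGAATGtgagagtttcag
Ajuba, 186 bases upstream, chr14:54577830-54577859, plus strand: gaggggcactgtGGAATGtatccatcaacg
Ajuba, 164 bases upstream, chr14:54577808-54577837, plus strand: ttgtttacagttGGAATGcgcggaggggca
Lats2, from the 5th transcribed base, chr14:57746102-57746131, minus strand: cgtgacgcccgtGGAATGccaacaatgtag

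The distances are from the first base of the core, read along the gene, to the annotated RefSeq start. The Lats2 position is likewise counted from a RefSeq start. For Ankrd1, Amotl2 and Lats2 that start and the listed cores lie inside the span of the counted gene. The Lats2 span, for example, runs on to 57758388, upstream of its core. For these genes upstream therefore refers to the RefSeq start only. Which start was used in these cells was not tested. Wwtr1 had a pair of overlapping windows that held the same core, and its distance is from the start further upstream. The 2nd Lats2 window held no core. Such a match is a description of the letters, and no binding was measured here. Searched in the same way, the AP-1 site TGANTCA and the CArG box, the site of serum response factor, had 0 matches in the 9 windows, against 7.81% and 1.63% of all windows. The TATA box string TATAAA was found in 1 of the 9, that of Ccn1, against 13.6% of all windows. Only this exact string was searched, so a TATA box of another spelling would have been missed.

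The 6 targets all had a negative fitted change, from -0.997 for Ccn2 to -0.0813 for Ccn1 on the log2 scale, but not all passed the test. Ccn2 and Ankrd1 fell clearly with cepharanthine, Amotl2 and Ajuba fell by smaller amounts, and Ccn1 and Lats2, whose values overlapped between the groups, did not pass the test. Transcripts of Yap1, Wwtr1 and Tead1 differed by less than 10% in either direction and did not pass the test. In all, 4 of the 9 genes fell and 0 rose at a Benjamini-Hochberg adjusted p under 0.05 in edgeR's quasi-likelihood test, which was fitted on all 13405 genes with enough counts. Over all those genes 38.2% changed, 18.2% downward and 20.1% upward. The 9 genes had a median log2 fold change of -0.12, against 0.0083 for all genes tested, and the 6 targets had a median of -0.29. No member rose at an unadjusted p under 0.05 either (0 of 9), and DESeq2 and limma-voom also gave 4 falls and 0 rises. For 3 of the 9 genes every CEP library was below every DMSO library, and for 0 of the 9 every CEP library was above. Over all tested genes those shares were 24.7% and 25.2%, together 49.9%. In bulk RNA, fewer cells of a type and less RNA per cell cannot be told apart.

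Libraries held 15299261 to 19655010 counts, and depth did not separate the groups (exact two-sided permutation p = 0.9, where 0.1 is the smallest p that 3 against 3 can give). CEP replicate 1 stood apart from the other treated libraries on the first principal component (score 10.1, against 28.5 and 30.4 for CEP replicates 2 and 3 and -23.8 to -21.9 for the DMSO libraries). Without it 6905 of 13650 tested genes changed (50.6%), 25.7% downward, in place of 38.2% and 18.2% with it, and 6 of the 9 members fell in place of 4. Of the epithelial markers, 6 of 6 were tested. Of these 4 rose (Epcam, Cdh1, Krt19 and Cldn7) and 2 fell (Krt8 and Krt18, the 2 most abundant). Mean levels in DMSO and CEP were 1300 and 858 CPM for Krt8 and 1240 and 1036 CPM for Krt18. The summed level of all 6 was 2803 to 2892 CPM in CEP and 3193 to 3280.2 CPM in DMSO, although 4 of the 6 rose. The 7 leukocyte and 5 endothelial markers summed to at most 0.366 and 0.591 CPM in any library, with Lyz2, Adgre1 and Kdr among those at 0 in all 6. The fibroblast markers summed to 85.7 to 100.8 CPM in CEP and 62.8 to 69.5 CPM in DMSO, mostly Pdgfra. Col3a1 and Lum, also on that list, were at 0 in all 6. The part of these marker differences in the results was not tested.

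**Figure D1:**
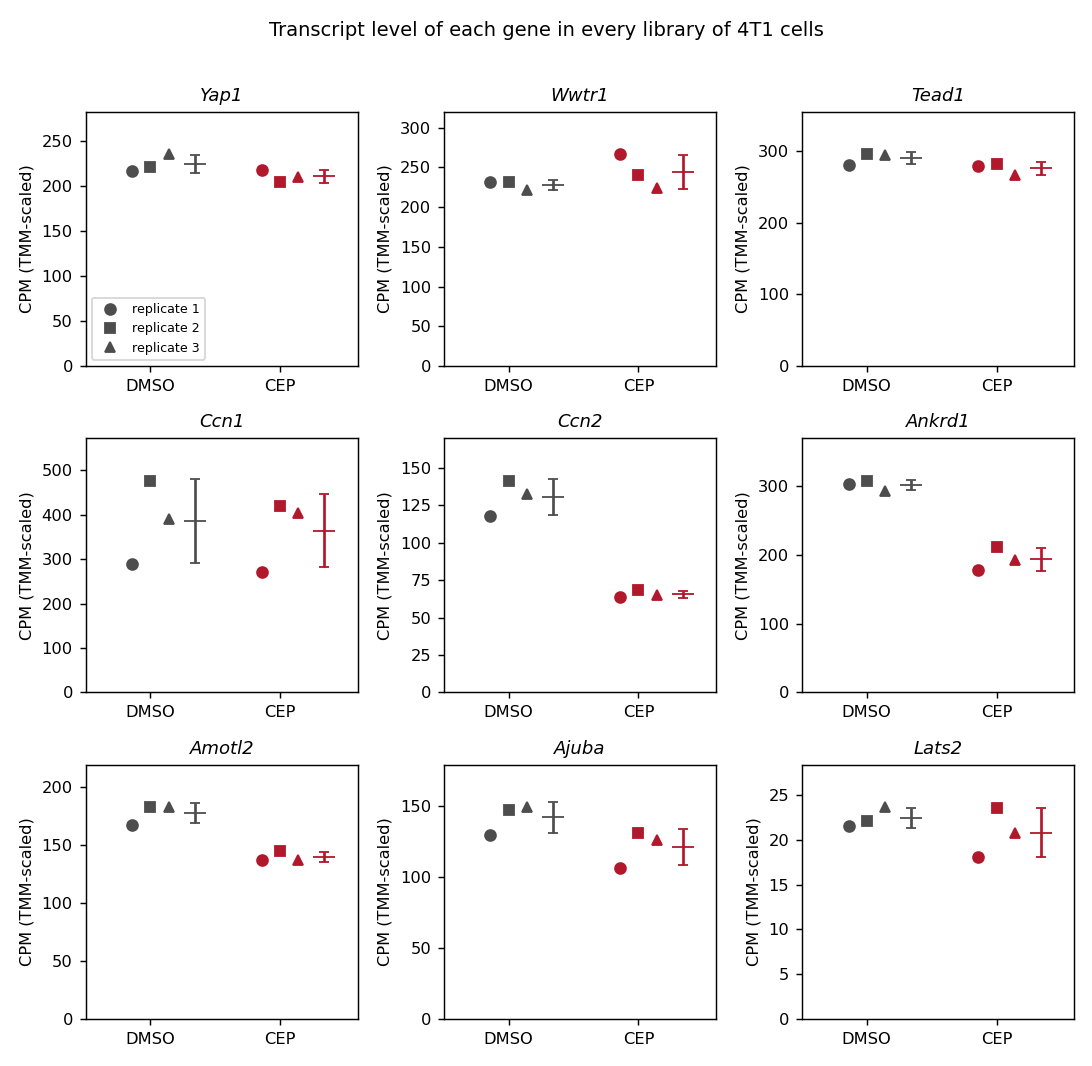
Level of each of the 9 genes in each library, in CPM scaled by TMM (vertical axes start at 0), with a symbol for each replicate number, and the group mean ± SD (n = 3) as the bar to the right. The CEP points lie below all DMSO points for Ccn2, Ankrd1 and Amotl2 and overlap them for the other 6 genes.

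Levels are given as CPM, the counts of a gene per 1000000 counts of its library, after TMM scaling, a correction for library composition, and fold changes are log2, CEP minus DMSO, ± SE. Yap1 (ENSMUSG00000053110, chromosome 9, 7931999 to 8004596, minus strand, GRCm38.p6) had 218, 205 and 209 CPM in CEP replicates 1, 2 and 3 and 216, 221 and 235 CPM in DMSO replicates 1, 2 and 3. The groups met at CEP replicate 1, which lay above DMSO replicate 1. The difference was -0.0903 ± 0.0490, with a 95% confidence interval of -0.20 to 0.0145 (edgeR quasi-likelihood test, adjusted p = 0.161). Without CEP replicate 1 the fall in Yap1 was -0.13 and passed (edgeR adjusted p = 0.00754, alternatives 0.00102 to 0.507).

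Wwtr1 (ENSMUSG00000027803, chromosome 3, 57455649 to 57575910, minus strand), which encodes TAZ, had 267, 241 and 224 CPM in the CEP libraries and 231, 231 and 221 CPM in the DMSO libraries. It was highest in CEP replicate 1, and CEP replicate 3 lay among the DMSO libraries. Its log2 difference was 0.0991 ± 0.0586 (95% confidence interval -0.0264 to 0.22, edgeR adjusted p = 0.197). Leaving out 1 CEP library moved it both ways. Without CEP replicate 1 it was 0.0150 (edgeR adjusted p = 0.784), and without CEP replicate 3 it was 0.16 and passed (edgeR adjusted p = 0.0481), the ends of the range over the alternatives.

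Tead1 (ENSMUSG00000055320, chromosome 7, 112679318 to 112906807, plus strand) had 278, 282 and 266 CPM in CEP and 281, 295 and 294 CPM in DMSO. CEP replicate 2 was above DMSO replicate 1, so the groups overlapped. The log2 difference was -0.0752 ± 0.0465 (95% confidence interval -0.17 to 0.0243, edgeR adjusted p = 0.217), and it passed without CEP replicate 1 (-0.0979, edgeR adjusted p = 0.0349, alternatives 0.00714 to 0.50). For the genes of YAP, TAZ and TEAD1 together, the confidence intervals leave room for falls of up to 0.20 and rises of up to 0.22 on the log2 scale. These bounds are smaller than the fitted falls of Ccn2, Ankrd1 and Amotl2.

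Per kilobase of exon, Yap1 and Wwtr1 were present at similar levels in the solvent control, at 53.8 ± 2.39 and 48.5 ± 1.26 RPKM (SD, n = 3), and Tead1 at 29.1 ± 0.832 RPKM. RPKM here is the scaled CPM divided by the table's exon length in kilobases. The ratio of Wwtr1 to Yap1 within a library, which no library scaling can alter, was 1.09, 1.05 and 0.951 in CEP and 0.949, 0.930 and 0.833 in DMSO. The CEP ratios lay above the DMSO ratios, but CEP replicate 3 and DMSO replicate 1 almost touched. The means were 1.03 ± 0.0697 and 0.904 ± 0.0619 (SD, n = 3). Permutation tests were run on this and the later ratios. Their p-values are not used, because the gene pairs were chosen after the counts were seen.

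Ccn2 (ENSMUSG00000019997, chromosome 10, 24595442 to 24598683, plus strand) encodes connective tissue growth factor, a secreted matricellular protein and a widely used readout of YAP and TAZ. It stood at 63.5, 68.1 and 64.8 CPM in CEP replicates 1, 2 and 3 and at 118, 141 and 133 CPM in DMSO replicates 1, 2 and 3. Every CEP library was well under every DMSO library, and the 3 CEP values lay close together. The transcript fell by 49.9%, a log2 fold change of -0.997 ± 0.0653 (95% confidence interval -1.14 to -0.86, edgeR adjusted p = 7.65e-08). Ordered by fitted fold change, it was the 75th lowest of the 13405 genes. The value ran from -1.07 to -0.94 when any 1 library was left out.

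Ankrd1 (ENSMUSG00000024803, chromosome 19, 36111961 to 36120099, minus strand) encodes the ankyrin repeat protein CARP, first studied in the heart, which is found in the nucleus and the sarcomere. Its level was 177, 211 and 192 CPM in CEP and 302, 308 and 293 CPM in DMSO. The lowest DMSO library was above the highest CEP library by a wide margin. Ankrd1 fell by 35.8%, a log2 fold change of -0.64 ± 0.0583 (95% confidence interval -0.76 to -0.51, edgeR adjusted p = 1.72e-06), the 315th lowest of 13405. With 1 library left out it ran from -0.71 to -0.59. Among all tested genes, 2.60% both changed and were lower by at least 0.5 on this scale, as Ccn2 and Ankrd1 were.

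Ccn1 (ENSMUSG00000028195, chromosome 3, 145646976 to 145649981, minus strand) encodes CYR61, a secreted relative of CCN2 and an immediate early gene of the serum response. It was the most abundant of the 9 genes per kilobase, at 191 ± 46.8 RPKM in DMSO (SD, n = 3). Its level was 270, 420 and 403 CPM in CEP replicates 1, 2 and 3 and 288, 477 and 390 CPM in DMSO replicates 1, 2 and 3. Replicate 1 was the low library in both groups, and the groups overlapped throughout. The coefficient of variation was 22.5% in CEP and 24.5% in DMSO, the widest of the 9 genes in each group, whereas counting error at this depth is about 1.25%. The difference was -0.0813 ± 0.276, with a 95% confidence interval of -0.82 to 0.66 (edgeR adjusted p = 0.847). That interval includes a fall as large as that of Ankrd1 and a rise of similar size. The interval rests on the spread within each group, and without both libraries numbered 1 the difference was -0.0843 ± 0.133 (edgeR adjusted p = 0.667). The sign turned without CEP replicate 1 (0.0825) or without DMSO replicate 2 (0.0970).

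The promoter windows of Ankrd1 and Ccn1 are printed whole, because both carry the TEAD core while Ankrd1 passed the test and Ccn1 did not. Their difference in response was not shown, since their ratio overlapped between the groups, as given below. Capitals mark GGAATG on either strand, which reads CATTCC on the other, and TATAAA. No other spelling of the TATA box was searched or marked, in Ankrd1 or in Ccn1. Both are on the minus strand of GRCm38.p6 and written 5′ to 3′ along the gene.
Ankrd1, chr19:36119795-36120094: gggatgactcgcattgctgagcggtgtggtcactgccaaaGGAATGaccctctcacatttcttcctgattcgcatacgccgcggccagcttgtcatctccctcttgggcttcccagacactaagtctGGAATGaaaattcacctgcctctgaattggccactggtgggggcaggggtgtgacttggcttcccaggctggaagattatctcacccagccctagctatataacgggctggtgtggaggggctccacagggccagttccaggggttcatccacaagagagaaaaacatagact
Ccn1, chr3:145649936-145650235: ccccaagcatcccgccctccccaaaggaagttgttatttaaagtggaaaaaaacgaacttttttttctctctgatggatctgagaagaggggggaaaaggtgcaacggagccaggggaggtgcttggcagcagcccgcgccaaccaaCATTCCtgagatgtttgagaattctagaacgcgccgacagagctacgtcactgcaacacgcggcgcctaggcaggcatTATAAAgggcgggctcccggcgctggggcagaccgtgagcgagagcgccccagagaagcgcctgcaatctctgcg

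Ratios of targets inside each library, which need no scaling, are given as a description, since the pairs were picked for their counts. The ratio of Ccn2 to Ccn1, per kilobase, was 0.198, 0.137 and 0.135 in CEP and 0.343, 0.250 and 0.286 in DMSO. No CEP ratio reached a DMSO ratio, as for the level of Ccn2 itself, and the means were 0.157 ± 0.0358 and 0.293 ± 0.0472 (SD, n = 3). The ratio of Ccn2 to Ankrd1 was 0.302, 0.272 and 0.285 in CEP and 0.328, 0.387 and 0.382 in DMSO, so each CEP ratio was below each DMSO ratio. The ratio of Ankrd1 to Ccn1 overlapped between the groups, with 0.545 ± 0.0975 in CEP and 0.814 ± 0.209 in DMSO (SD, n = 3).

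**Figure D2:**
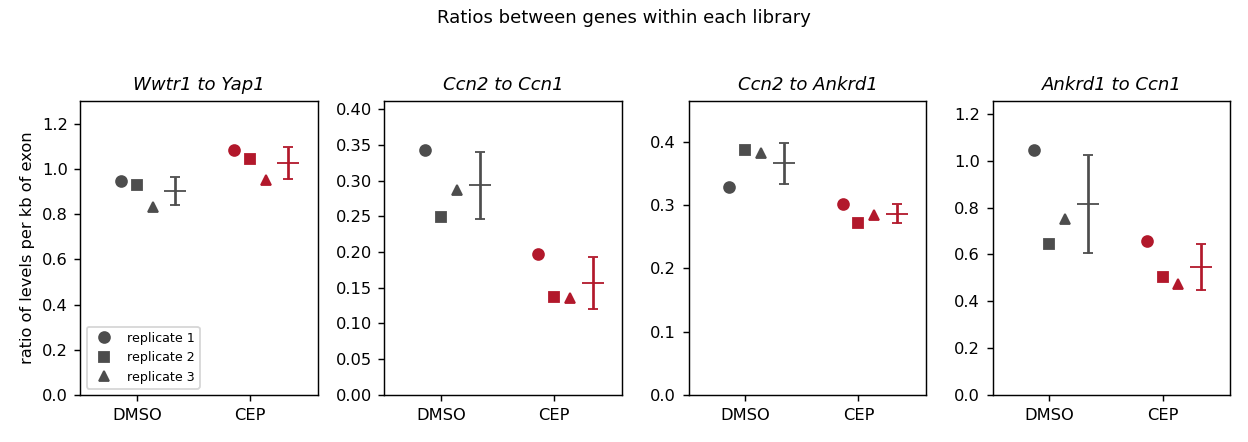
Ratio of 2 genes within each library, from levels per kilobase of exon (vertical axes start at 0), with a symbol for each replicate number and the group mean ± SD (n = 3) as the bar. The Ccn2 to Ccn1 ratio lies between 0.135 and 0.198 in CEP and between 0.250 and 0.343 in DMSO.

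Amotl2 (ENSMUSG00000032531, chromosome 9, 102716672 to 102733418, plus strand) encodes an angiomotin family scaffold that binds YAP at junctions and is itself switched on by YAP. Its level was 137, 145 and 138 CPM with CEP and 167, 183 and 183 CPM with DMSO, with no overlap. It fell by 21.3% (log2 fold change -0.35 ± 0.0502, 95% confidence interval -0.45 to -0.24, edgeR adjusted p = 1.17e-04).

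Ajuba (ENSMUSG00000022178, chromosome 14, 54567472 to 54577558, minus strand) encodes a LIM domain protein that binds and restrains LATS kinases. Its level was 106, 131 and 126 CPM in CEP and 129, 147 and 149 CPM in DMSO. CEP replicate 2 lay just above DMSO replicate 1, and CEP replicate 1 was the lowest library. It fell by 14.9% (log2 fold change -0.23 ± 0.0776, 95% confidence interval -0.40 to -0.0624, edgeR adjusted p = 0.0339). This call ended without DMSO replicate 2 (-0.21, edgeR adjusted p = 0.103), without DMSO replicate 3 (-0.20, adjusted p = 0.118) and with library totals in place of TMM (-0.23, adjusted p = 0.0539), within a range of 1.88e-05 to 0.118 over all alternatives.

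Lats2 (ENSMUSG00000021959, chromosome 14, 57689662 to 57758388, minus strand) encodes the kinase that phosphorylates YAP and TAZ. It was the least abundant of the 9 genes, with 18.1, 23.5 and 20.8 CPM under CEP and 21.6, 22.1 and 23.7 CPM in DMSO. CEP replicate 1 was lowest and CEP replicate 2 lay among the DMSO libraries. The difference was -0.12 ± 0.0989 (95% confidence interval -0.33 to 0.0960, edgeR adjusted p = 0.379). In GENCODE M21, 2955 exonic bases of Lats2 are shared with Gm49361 on the same strand, a gene with 0 counts in all libraries, so the Lats2 count is uncertain if reads matching both genes were dropped. Genes on the opposite strand shared 665 exonic bases with Ccn2 and 116 with Yap1 and held only 2 and 4 counts over all libraries.

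**Figure D3:**
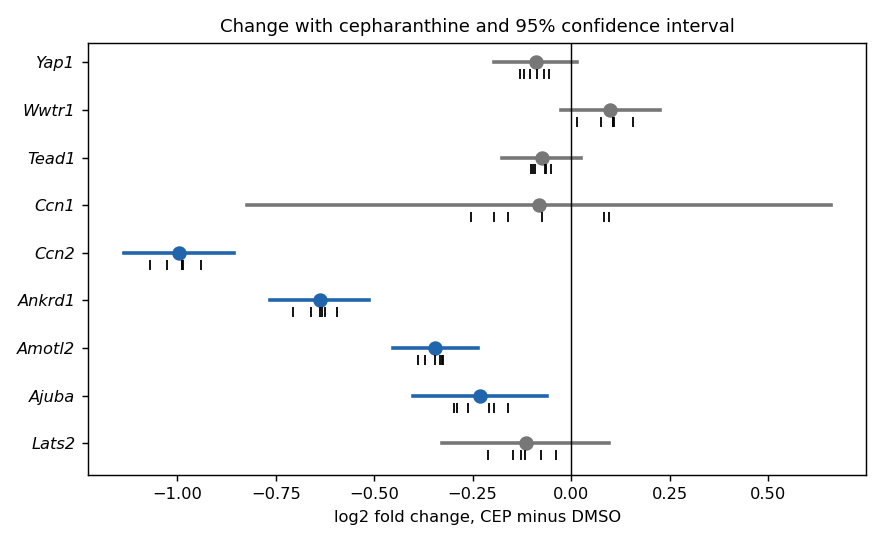
Log2 fold change of each gene, CEP minus DMSO (horizontal axis), as a point with its 95% confidence interval, blue where the gene fell at an adjusted p under 0.05 and grey where it did not pass. The short black ticks under each line are the values with 1 library left out. Ccn2 at -0.997 and Ankrd1 at -0.64 lie farthest from 0, and the Ccn1 interval runs from -0.82 to 0.66.

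Other known YAP and TAZ targets went both ways. Of 24 listed, 18 had enough counts, and 4 fell, 3 rose and 11 did not pass, with a median log2 fold change of -0.0171. That is 38.9% changed, next to 38.2% of all genes. Among the lower genes were Birc5, which encodes survivin and is also a mitotic gene (-0.30 ± 0.0478, from 179 ± 5.05 to 145 ± 5.63 CPM, SD, n = 3), Axl, a receptor tyrosine kinase gene (-0.31 ± 0.0613), and Crim1 (-0.16 ± 0.0521), the last named after its value was seen. Higher were Gadd45a, a gene of the DNA damage and stress response (0.78 ± 0.0955, from 15.8 ± 1.76 to 27.2 ± 1.59 CPM, SD, n = 3), F3, which encodes tissue factor (0.43 ± 0.131), and Col8a1, a collagen gene (0.21 ± 0.0757). By edgeR's quasi-likelihood test the adjusted p was 2.54e-05 for Gadd45a and 0.0465 for Col8a1. Only 1 of the 3 rises, that of Gadd45a, was called without CEP replicate 2 or without DMSO replicate 1. Gadd45a passed under each of 16 alternatives, while the call ended under 2 of them for F3 and 7 for Col8a1. Of the falls named here, Birc5 and Axl passed under each, and the call of Crim1 ended under 2.

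The genes that control YAP and TAZ moved little. The Hippo kinase cassette had 14 genes, each with enough counts, and 3 were higher, 1 was lower and 10 did not pass. The kinase genes Map4k2 and Map4k4 rose by 0.29 ± 0.0881 and 0.18 ± 0.0485, and Taok3, also an upstream kinase gene, rose by 0.27 ± 0.0781. Mob1a, which encodes a cofactor of the LATS kinases, fell (-0.17 ± 0.0497). Of 23 further upstream regulators 20 had enough counts, of which 1 was higher, 3 were lower and 16 did not pass. Csnk1e, a casein kinase gene, rose by 0.18 ± 0.0587, and Frmd6, Amotl1 (an angiomotin family gene) and Strn3 (of the STRIPAK phosphatase complex) fell (-0.21 ± 0.0457, -0.17 ± 0.0474 and -0.19 ± 0.0549). Over both lists 23.5% changed, against 38.2% of all genes. Most of these calls were near the threshold. The 4 rises became 0 without DMSO replicate 3, 1 without CEP replicate 2 or DMSO replicate 1, and 2 without CEP replicate 3. The 4 falls became 1 without CEP replicate 3 and 2 without DMSO replicate 3, while Frmd6 passed under each of its 16 alternatives. Of the other TEAD and VGLL genes, 5 of 7 were tested and 0 passed by edgeR, DESeq2 or limma-voom, or at an unadjusted p under 0.05 in edgeR. Tead2 had a mean of 109 ± 4.35 CPM with CEP against 110.5 ± 5.17 CPM with DMSO (SD, n = 3), and Vgll4, which encodes a competitor of YAP for TEAD, at 63.0 ± 7.04 and 62.8 ± 0.605 CPM.

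Serum response factor (SRF) and its actin-sensing coactivators, the MRTF proteins, control an overlapping set of genes, and Ccn1, Ccn2 and Ankrd1 are also known to respond to them. Of 16 genes on a list of SRF, the MRTF genes and their cytoskeletal targets, 12 had enough counts, and 7 were lower, 0 higher and 5 not past the threshold, with a median of -0.23. That is 58.3% lower, against 18.2% of all genes. At an unadjusted p under 0.05 in edgeR, 8 were lower and 1, Mrtfb, was higher. DESeq2 and limma-voom also gave 7 lower and 0 higher, where 16.3% and 17.8% of all genes were lower. Among the 7 lower genes the falls were largest for Actb, which encodes beta-actin (-0.51 ± 0.0777, from 3053 ± 77.1 to 2139 ± 284 CPM, SD, n = 3), and the actin-binding protein gene Cnn2 (-0.47 ± 0.0576, from 293 ± 18.3 to 211 ± 12.7 CPM, SD, n = 3). Tpm1, a tropomyosin gene, fell by 0.26 on the log2 scale. These 3 genes passed under each alternative, with adjusted p-values of at most 0.00724. Srf itself was also among the lower genes (-0.31 ± 0.0704), while the coactivator genes Mrtfa (0.0350 ± 0.0615) and Mrtfb (0.13 ± 0.0599) did not pass. Acta2, Tagln, Cnn1 and Myl9 had too few counts to be tested. Srf, the MRTF genes and the untested genes were named after their values were seen.

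Of 4 further genes of the CCN family 3 were tested, and 1 of them passed, where 38.2% of all genes changed. That gene was Ccn3. It encodes NOV, a secreted CCN protein that often opposes CCN2, and it rose from 15.1 ± 1.23 to 38.0 ± 2.95 CPM (SD, n = 3, log2 fold change 1.33 ± 0.0888, edgeR adjusted p = 8.64e-08). Ccn4 (-0.0291 ± 0.113) and Ccn5 (0.85 ± 0.345, edgeR adjusted p = 0.0663), both named after their values were seen, did not pass. Ccn5 had 1.37 ± 0.413 CPM in CEP and 0.754 ± 0.144 CPM in DMSO (SD, n = 3). Every CEP library was above every DMSO library, as for 25.2% of all genes. Among the CCN genes tested, Ccn2 thus fell, Ccn3 rose and Ccn1, Ccn4 and Ccn5 did not pass.

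**Figure D4:**
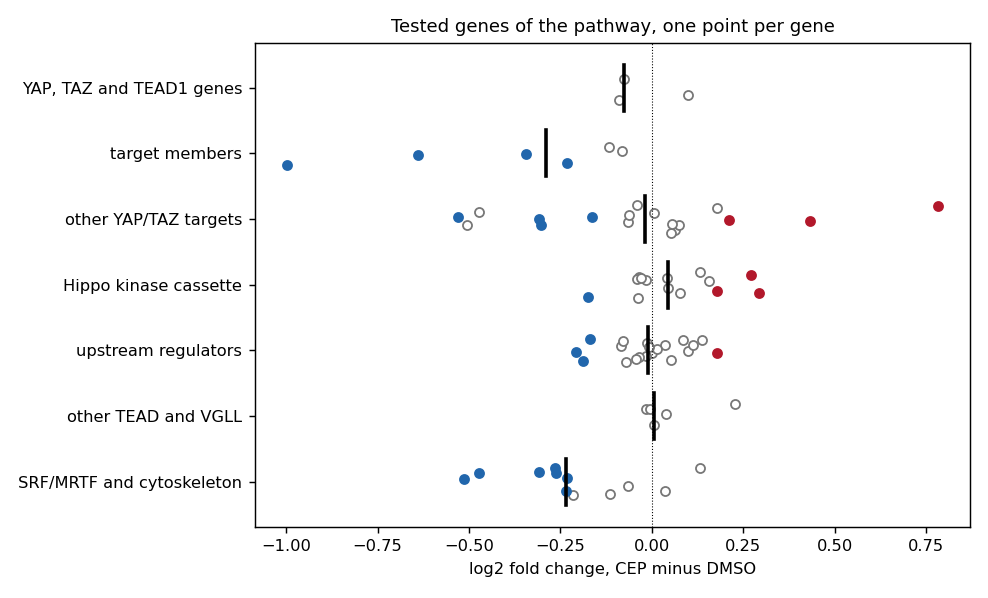
Log2 fold change, CEP minus DMSO, of every tested gene of the pathway lists (horizontal axis), 1 point per gene with random vertical spread, blue where lower and red where higher at an adjusted p under 0.05, open where it did not pass. Black bars are medians, which are -0.29 for the 6 target members, -0.0171 for other YAP and TAZ targets and -0.23 for the SRF and MRTF list.

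The gene most like each member over the 6 libraries, by Pearson correlation of log2 CPM among 10411 other genes of at least 5 CPM, is given as a description, since all libraries of a group share a treatment. It was Ulk4 for Ccn2 (r = 0.998), Nedd9 for Ankrd1 (r = 0.999), Pim3 for Amotl2 (r = 0.999), Smarcd2 for Yap1 (r = 0.999) and Ndufa13 for Tead1 (r = 0.996). The closest genes to Wwtr1, Ccn1, Ajuba and Lats2 were Washc4, Edem2, Coq6 and Adgrl1 (r = 0.990, 0.985, 0.990 and 0.990). As many as 511 genes had r above 0.95 with Ccn2, 248 with Ankrd1 and 346 with Amotl2. Fewer did with the other members: 43 with Tead1, 33 with Yap1, 23 with Ajuba, 18 with Ccn1, 10 with Wwtr1 and 6 with Lats2.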

How the data were processed

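The deposited table held whole-number read counts per Ensembl gene for 6 libraries, handled as bulk RNA, with exon lengths and GRCm38.p6 coordinates per the file headers. Per the labels' protocols, libraries were stranded and poly(A)-selected. HISAT2, HISAT, HTSeq and DESeq2 are named in the submitters' processing notes; the sources used here do not give settings, versions or the strand option of counting. Nothing says that replicates came from separate cultures, so p-values measure the spread between these libraries, which may be technical. Replicate pairs differed beyond sampling noise (chi-square per degree of freedom 1.81 to 10.9).

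Low counts were removed by filterByExpr (count of at least 10, total of at least 15). After TMM scaling, edgeR 4.0.16 in R 4.3.3 gave a robust quasi-likelihood test with group as its single term and Benjamini-Hochberg adjustment over 13405 genes. The SE is the size of the log2 fold change divided by the root of the F statistic. The test was checked on simulated counts. Alternatives used DESeq2 1.42.0, limma-voom (limma 3.58.1), other scaling, other filters, protein-coding genes only, a replicate block, a threshold of 0.01 and each library left out. Leaving out both libraries numbered 1, and running the SRF list under all settings, were added after the data were seen. Members and lists were chosen with earlier results of these data known. All 9 members are named; from each other list up to 3 genes per direction, those of smallest adjusted p, are named, or its 2 most abundant genes where none passed, and for each member the gene most like it. A few listed genes are left out of the text, and a few others were named after their values were seen.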

Additional observations from a re-analysis of the deposited data

How the results depend on the processing

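Ccn2, Ankrd1 and Amotl2 fell and passed under each of 16 alternatives, with ranges of -1.07 to -0.94, -0.71 to -0.59 and -0.39 to -0.33, and Lats2 did not pass under any (-0.21 to -0.0374). With 1 library left out, Ccn1 ran from -0.26 to 0.0970. Wwtr1 passed without CEP replicate 3, giving 1 member higher (range 0 to 1). Over all genes, 27.3% (without DMSO replicate 3) to 50.6% (without CEP replicate 1) changed with 1 library left out, and the counts that follow are to be read against that. Between 3 and 6 members were lower, 6 of them without CEP replicate 1. Of other YAP and TAZ targets, 1 to 4 rose and 3 to 5 fell with 1 library left out, and of Hippo kinase and upstream genes 0 to 6 rose and 1 to 5 fell. At a threshold of 0.01, 3307 genes (24.7%) changed in place of 5125, 1 other target rose, and 1 Hippo gene rose and 1 fell. Without both libraries numbered 1, 7 other targets fell and 52.4% of all genes changed. The cause of these shifts was not tested. With the replicate number as a block, 4896 genes changed and 4 members were lower, and no member's call changed. Same-numbered libraries did not deviate together over all genes (correlations -0.0462, 0.0245 and -0.0354). These correlations cannot show whether a smaller set of genes deviated together. Ccn1 had an SE of 0.0591 under the block (log2 fold change -0.0774, edgeR adjusted p = 0.329) against 0.276 without it. Whether same-numbered libraries share more than a number was not tested. Under the scalings tried the median of all genes stayed between -0.0225 and 0.0091. Cultures, protein levels and the location of YAP were not measured here.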
